A study of Mus musculus with 4 samples.

Results

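Some Fos-bound stretches of the mouse colon genome were not single peaks but long runs of peaks, and the 278 longest runs are described here. Each was a region in which the peak caller placed 10 or more summits, a summit being a local maximum of signal inside a continuous stretch of enrichment. They were found by grouping the rows of the authors' peak list that share a chromosome, start and end, and by leaving out 1 such region in a short stretch of chromosome 17. They made up 0.256% of the 108406 regions in the list and held 3406 of its 178981 summits (1.90%) and 2.09% of the bases it covers. The regions were chosen by their number of summits, a measured value, and width and fold come from the same signal, so those values are a description and carry no test.

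The series mapped Fos by CUT&Tag, in which an antibody brings the transposase Tn5 to the protein so that it cuts and tags the DNA nearby. The tissue, labelled colonic epithelium, was mucosa scraped from colons held for 30 min in 4 mM EDTA with 10% serum, from wild-type (WT) mice: 2 healthy controls and 2 animals after recovery from colitis. The latter had drunk 1 to 1.5% dextran sodium sulfate (DSS), which injures the colonic epithelium, over 3 cycles of 7 days with pauses of 10 days, and were killed 22 days after the last one. The sources used here give no ages, and the 4 libraries share 1 batch label. The file is 1 list for the whole series with no value per library, so healthy and recovered colon were not compared, no value has a replicate error, and no test over samples could be made. No library without the Fos antibody was analysed here, so the share of signal from open chromatin that Tn5 cuts by itself was not measured.

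Fos is a leucine zipper protein that joins a Jun protein to form the transcription factor AP-1, which binds the palindrome TGANTCA, and related pairs with ATF proteins also bind TGACGTCA. Growth factors, stress and wounding induce the Fos and Jun genes within minutes, and AP-1 then acts at many enhancers and promoters. Long stretches of dense factor binding are known from genes that a cell type expresses strongly and from immediate-early genes. In the colon, AP-1 target genes include those of the cytoskeleton, of cell junctions and of the response to injury.

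Sequences that lie inside these regions give a view of what the signal covers. Promoter windows, from 250 bases before to 50 after a gene start, came from RefSeq in build GRCm38.p6, the assembly that mm10 names, and 230 of 32619 overlapped one of the regions. The stretches below are 5 of those that hold an AP-1 motif, taken from genes active in epithelial cells where a summit stood close by, each with 40 bases on either side of the motif, on the strand of the gene and ahead of its start. The motif is in capitals.
Anxa2 (annexin A2), chr9:69453548-69453634, plus strand: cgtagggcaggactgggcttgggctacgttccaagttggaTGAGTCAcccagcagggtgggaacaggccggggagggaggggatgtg
F11r (junctional adhesion molecule A), chr1:171437412-171437498, plus strand: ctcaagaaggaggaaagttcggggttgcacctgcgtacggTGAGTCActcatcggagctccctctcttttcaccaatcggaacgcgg
Guca2a (guanylin), chr4:119637492-119637578, plus strand: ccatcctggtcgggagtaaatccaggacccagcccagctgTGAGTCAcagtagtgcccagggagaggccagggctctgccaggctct
Lsr (angulin 1), chr7:30973488-30973574, minus strand: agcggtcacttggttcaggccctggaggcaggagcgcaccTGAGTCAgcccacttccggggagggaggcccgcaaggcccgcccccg
Klf9 (Krüppel-like factor), chr19:23141097-23141183, plus strand: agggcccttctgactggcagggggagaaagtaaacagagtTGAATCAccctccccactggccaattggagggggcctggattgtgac

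Each of these 5 motifs lay within 113 bp of a called summit. The summit nearest the Anxa2 motif was 71 bp away with a fold of 154, and that nearest the Guca2a motif 113 bp away with a fold of 181. For F11r the distance was 49 bp and the fold 142, for Lsr 64 bp and 66.4, and for Klf9 27 bp and 91.4. The summits at Guca2a, F11r, Lsr and Klf9 were the strongest of their regions. These 5 were chosen partly for that closeness and do not stand for the rest: at Cldn15, a claudin gene, the motif was 210 bp from the nearest summit, whose fold was 29.6.

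Over all windows in the regions, the share with the AP-1 letters was close to that of all windows and lay between those of the other groups. TGANTCA, which reads the same on both strands, occurred in 17 of the 230 windows (7.39%, 95% Wilson interval 4.67 to 11.5), against 7.85% of all 32619 windows. Windows in regions with fewer summits held it in 5.86% (5.49 to 6.25) and windows in no region in 9.51% (9.09 to 9.95). The longer palindrome TGACGTCA, which shares no full match with TGANTCA, occurred in 4 of the 230 (1.74%) against 1.80% of all windows. Base composition differed between these groups, with a median GC content of 62.8% in the 230 windows and 53% over all. The windows cover only the bases next to gene starts, and the rest of each region was not read, since no genome sequence was used here.

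A second set of sequences shows small RNAs inside the regions. MicroRNAs are short RNAs that pair with messenger RNAs through a seed, bases 2 to 8, shown in capitals, and repress them. The regions overlapped 11 of 1228 annotated miRNA genes, among them the pair that marks epithelial cells, miR-200c and miR-141, which repress the Zeb1 and Zeb2 genes, and a pair of let-7 genes.
mmu-miR-200c-3p, chr6:124718324-124718346, minus strand: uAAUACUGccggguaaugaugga
mmu-miR-141-3p, chr6:124717917-124717938, minus strand: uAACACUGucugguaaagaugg
mmu-let-7b-5p, chr15:85707325-85707346, plus strand: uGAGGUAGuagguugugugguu
mmu-let-7c-5p from Mirlet7c-2, chr15:85706616-85706637, plus strand: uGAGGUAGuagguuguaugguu

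The let-7 pair shares the seed GAGGUAG, while miR-200c-3p and miR-141-3p carry AAUACUG and AACACUG. Mir200c and Mir141 lay in a region of 14 summits and 5934 bp on chromosome 6, from 124716463 to 124722396, which also overlaps Phb2 and Ptpn6. The strongest summit of that region had a fold of 73.1, and the summit nearest the mature miR-141-3p, 43 bp off, a fold of 9.14 with 37 overlapping fragments. The let-7 genes lay in a region of 24 summits and 13026 bp on chromosome 15, from 85697705 to 85710730, whose nearest protein-coding gene was Ppara, the fatty acid sensing nuclear receptor, 24180 bp away. Its strongest summit had a fold of 85.6, while the summit 19 bp from let-7b-5p had 10.1 and 41 fragments. In both regions the miRNAs therefore sat at weaker summits than the strongest.

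The regions were wide and held both strong and weak summits. Their median width was 5917 bp (interquartile range 5085 to 6894, extremes 3574 and 17879), against a median of 527 bp over all regions. Most had few summits beyond the minimum: 100 had exactly 10, 54 had 11, 42 had 12, and 26 had 16 or more. The fold enrichment is the authors' linear ratio of signal to background at a summit, with the same background for all summits. It reached a median of 83.2 at the strongest summit of each region (interquartile range 48.7 to 141), against 6.98 over all regions. The extremes were 6.73 and 469. The median of the summits within a region was much lower, 11.5 (7.82 to 16.7), so the strongest summit stood a median of 6.85 times above the middle one of its region.

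**Figure D1:**
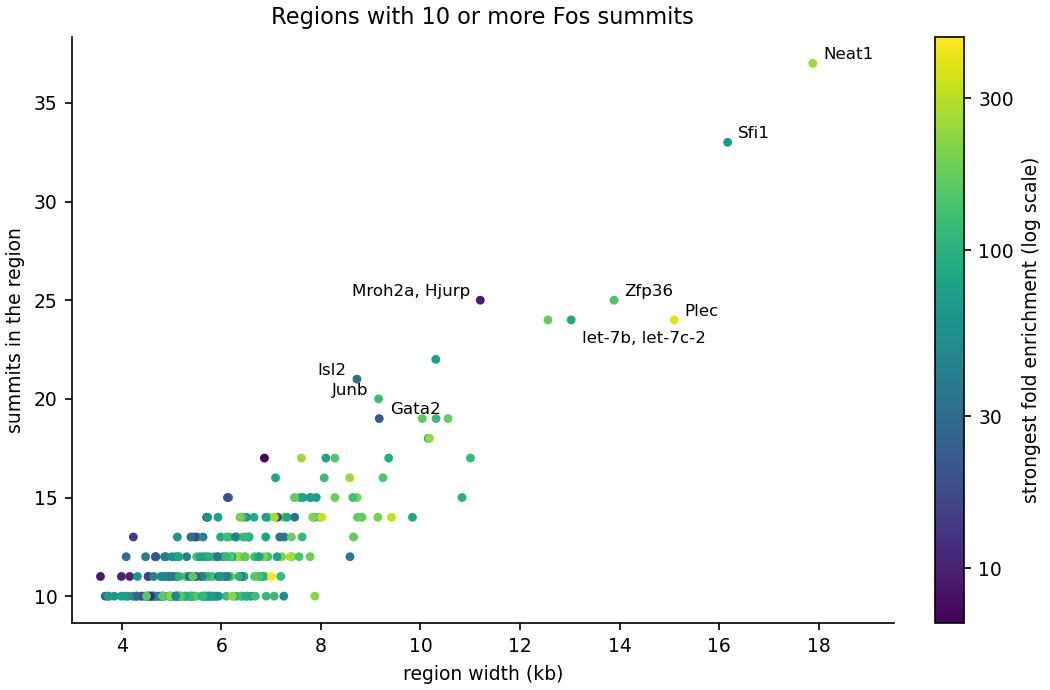
Number of summits (vertical axis) against width in kb (horizontal axis) for the 278 regions, 1 point each, coloured by the fold enrichment of the strongest summit on a log scale. The region at Neat1 stands at 37 summits and 17.9 kb, and dark points such as Mroh2a and Hjurp hold many summits of low fold.

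Of the 278 regions, 72 had no summit with a fold of 50 or more, 67 had 1, 55 had 2 and 84 had 3 or more. The second strongest summit reached a median of 68.7% of the strongest (interquartile range 48.5 to 86.7). Among the 3406 summits 15.6% had a fold of at least 50, against 6.96% of all summits in the list, and 48.0% were below 10, against 64.1%. Neighbouring summits stood a median of 456 bp apart (337 to 624), and in regions with 2 to 9 summits 413 bp apart (312 to 559). The 278 regions thus held their summits at a spacing near that of regions with 2 to 9 summits. Regions at least as wide as the narrowest of them but with fewer summits held a median of 1.66 summits per kb against 1.96.

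Values changed little across the limit of 10 summits. The 159 regions with 9 summits had a median width of 4554 bp and a median strongest fold of 75.3, and the 100 with exactly 10 had 5120 bp and 72.2. Wide regions with fewer summits were also common. In all, 874 regions were at least as wide as the narrowest of the 278 but had 3 to 9 summits, and their median strongest fold was 87.9.

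Protein-coding genes lay in or beside most of the regions. A gene boundary, meaning either end of the gene, fell inside 158 of 278 (56.8%, 51.0 to 62.5), while a further 73 lay inside a gene without reaching its ends and 47 overlapped no protein-coding gene. Over all 108406 regions 10.0% held a boundary, but these are far narrower. Among regions 5 to 7 kb wide, 88 of 148 with 10 or more summits held a boundary (59.5%, 51.4 to 67.0), and 47 of 104 with fewer summits did (45.2%, 36.0 to 54.8). The intervals overlap, cover counting error only and treat regions as independent. The median width in that range was 5893 bp for the former and 5366 bp for the latter. Boundaries of 2 or more genes fell inside 38 of the regions, and 14 genes lay whole inside one. Besides genes described further on, these included Irf2bp1 (17 summits, strongest fold 79.4), Leng9 (15 summits, 167), the neighbours Tmem210 and Lrrc26 (15 summits, 83.5) and Mcrip2 (11 summits, 104).

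Where a region held a gene start, its strongest summit stood near a listed start more often than its other summits did. Of the 278, 150 held at least 1 start from the promoter table, which does not list every gene. In these, the strongest summit lay within 250 bp of a listed start in 53 of 150 (35.3%, 28.1 to 43.3), against 177 of the 1668 other summits (10.6%, 9.22 to 12.2). Within 1000 bp the shares were 52.7% and 35.0%. The median distance to a start was 884 bp for the strongest summits and 1569 bp for the others. The strongest fold hardly differed between regions with and without a listed start, with medians of 84.5 and 81.5.

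**Figure D2:**
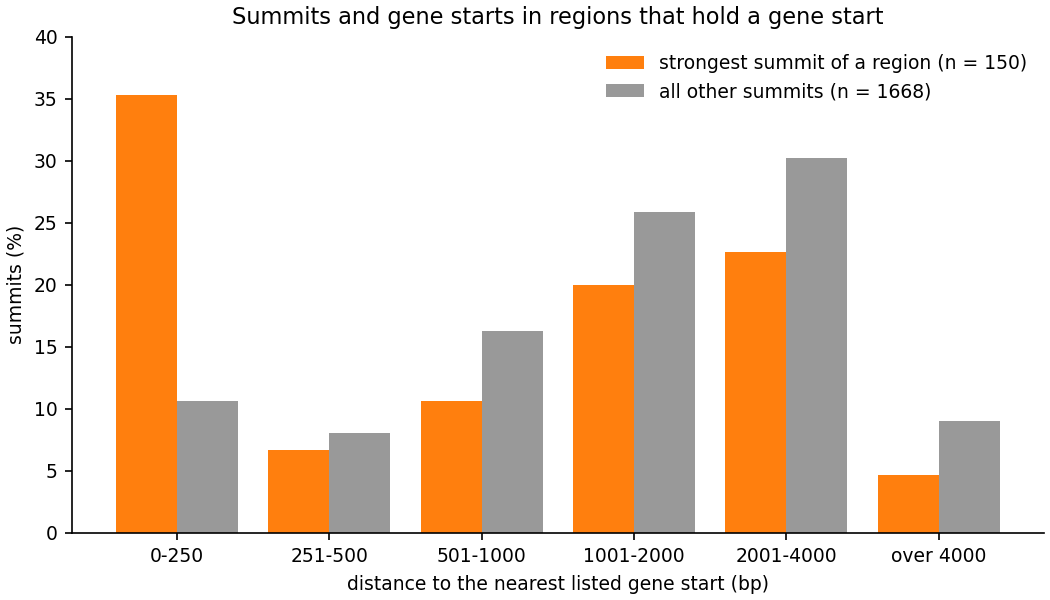
Share of summits (vertical axis, percent) by distance in bp to the nearest listed gene start (horizontal axis), for the 150 regions that hold a gene start. Orange bars are the strongest summit of each region and grey bars the other 1668 summits. The orange bar at 0-250 bp stands at 35.3% and the grey one at 10.6%.

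The regions touched 262 of 21631 protein-coding genes, or 1.21%, which is the background for the gene lists that follow. The lists were drawn up with earlier results of these data known, and their counts are descriptions without a test. Genes of the 262 were of ordinary length, with a median of 18536 bp against 17329 bp over all genes. Assignment rests on overlap or distance alone.

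Among the gene lists, the largest shares touched were in the AP-1 list and the immediate-early list. Of the 16 AP-1 and small Maf genes, 5 were overlapped (31.3%, 14.2 to 55.6): Junb and Jund, which encode partners of Fos, Fosl2, which encodes a relative of Fos, and Mafg and Mafk, which encode small Maf proteins. Fos itself was not among them. Junb lay whole inside a region of 20 summits and 9159 bp on chromosome 8, from 84973930 to 84983088, together with part of Prdx2, a peroxide-reducing enzyme. Its summits ran from a fold of 4.57 through a median of 10.9 to 127 (526 fragments, 95% Poisson interval 482 to 573). The next 2 were 86.1 and 69.8, at -545 and -1525 bp from the strongest. These strongest summits stood close together, outside Junb beyond its boundary at 84978748, with weaker ones out to both ends of the region.

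The Fosl2 region, on chromosome 5 from 32132672 to 32140079, had 13 summits. Its strongest, at 182 with 754 fragments (701 to 810), stood 596 bp from the nearest listed gene start, and 89.7, 62.3 and 48.8 followed in order on one side of it. The strongest folds of the regions at the other AP-1 genes were 144 for Mafk, 61.8 for Jund and 38.5 for Mafg. The lowest and the highest of the 5 thus differed more than their counting intervals, 135 to 186 fragments at Mafg and 701 to 810 at Fosl2. The Jund region also overlapped Iqcn, and its strongest summit, at 70703027, stood beyond the end of Jund at 70700616.

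Of the 23 immediate-early and feedback genes, 6 were overlapped (26.1%, 12.5 to 46.5). Zfp36, which encodes the mRNA decay factor tristetraprolin, lay whole in a region of 25 summits and 13888 bp on chromosome 7, from 28370564 to 28384451, that also reaches Plekhg2. Its folds ran from 3.13 through a median of 22.6 to 141 (585 fragments, 539 to 634), and 7 of its summits were at 50 or above. These 7 were spread over the region and not gathered at 1 place, from -10293 bp up to the strongest itself. Ier2, an immediate-early gene, also lay whole in its region, with 12 summits and a strongest fold of 75.05.

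The other immediate-early regions were smaller or weaker. Klf6, a zinc finger factor gene, had 10 summits and a strongest fold of 126, and Dusp4, a phosphatase gene that dampens MAP kinases, had 12 and 57.5. Gadd45b, a stress gene, had 11 and 53.2, and Mcl1, which encodes a survival factor of the Bcl2 family, 12 and 38.0. Of the 15 EGF receptor and MAPK genes 1 was overlapped, Spry2, a feedback inhibitor, with 11 summits and a strongest fold of 73.1.

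**Figure D3:**
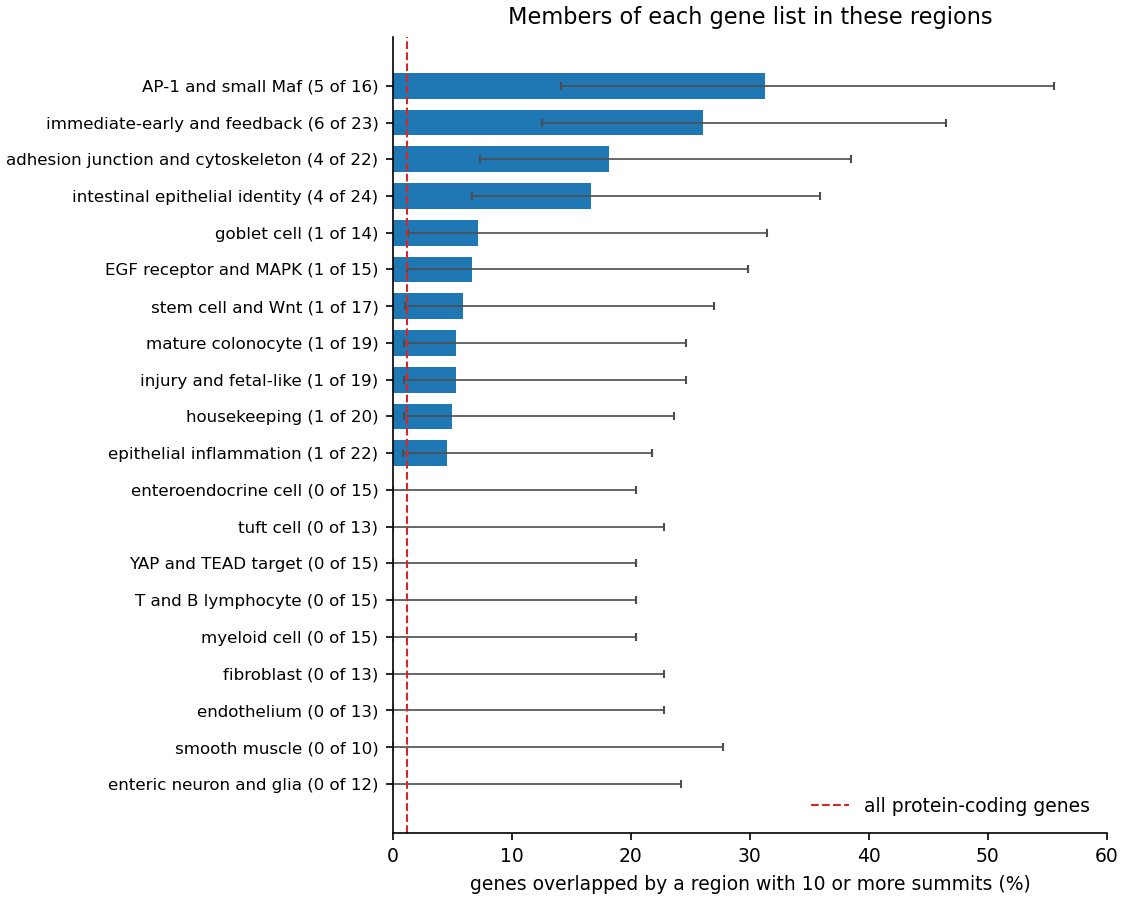
Share of the genes of 20 lists (vertical axis, with the number overlapped and the number matched) that overlap a region with 10 or more summits (horizontal axis, percent). Bars are shares, whiskers 95% Wilson intervals, and the dashed line is the share over all protein-coding genes, 1.21%. AP-1 and immediate-early lists stand highest, at 31.3% and 26.1%, and 9 lists stand at 0.

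Some of the strongest regions overlapped genes of the cytoskeleton. Of 22 genes listed for the cytoskeleton and cell junctions 4 were overlapped (18.2%, 7.31 to 38.5): Plec, Actg1, Myh14 and Actb. None of the desmosome, integrin and laminin genes of that list was among them. Plec, which encodes plectin, the linker of intermediate filaments to hemidesmosomes, had a region of 24 summits and 15096 bp in its interior on chromosome 15, from 76194898 to 76209993. Its strongest summit had a fold of 380 (1577 fragments, 1500 to 1657), and 13 of the 24 reached 50, the most of any of the 278 regions. In between lay a stretch at 4499 to 6989 bp from the strongest where 4 summits ran from 3.37 to 7.22. The signal at Plec was thus 2 blocks of strong summits joined by a weak bridge.

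Both cytoplasmic actin genes were overlapped. The Actg1 region had 15 summits, with 196 at the strongest and 113 and 99.6 next. These stood outside Actg1, which spans 120345687 to 120348495, at 120353876, 120351473 and 120350540. The last of them lay inside the noncoding RNA gene 0610009L18Rik. The Actb region had 12 summits, with 81.3 at the strongest. Myh14, a nonmuscle myosin gene, had 12 summits and a strongest fold of 118. Gsn, which encodes the actin-severing protein gelsolin, was in none of the lists but was the fifth strongest of the 278. Its 14 summits, on chromosome 2 from 35264436 to 35272452 inside the gene, included 313, 253 and 100.3 side by side, while 3 of the other summits were below 6.

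Intestinal epithelial identity genes were touched in 4 of 24 cases (16.7%, 6.68 to 35.9). Cdh1, which encodes E-cadherin, held a region of 13 summits in its interior on chromosome 8, from 106613405 to 106621027, in which 3 summits of 118, 117 and 98.1 rose above 10 others of 3.61 to 19.2. Cldn7, a claudin gene of tight and lateral junctions, lay whole in a region of 14 summits, with its strongest, 92.4, at 33 bp from a listed gene start. Lgals4, which encodes galectin-4, had 11 summits and a strongest fold of 145 at 211 bp from a start. Klf4, a factor of differentiated epithelium, had 12 and 75.3. The 4 genes thus differed in where the strongest summit stood, at a start for Cldn7 and Lgals4 and inside the gene for Cdh1.

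Lists of single epithelial cell types had 1 gene each or none. Guca2a of the mature colonocyte list (1 of 19), which encodes the hormone guanylin, had 12 summits with 181 at the strongest, 81 bp from a gene start, and a second high group of 150, 87.1 and 52.2 about 6 kb away. Muc2 of the goblet list (1 of 14), which encodes the main gel-forming mucin of the colon, had a region across its boundary at 141754691. The 14 summits of that region held no strong one, with folds from 3.61 through 10.1 to 17.3 (71 fragments, 55.5 to 89.6). The strongest of them stood outside Muc2, at 141757275. Tcf7l2 of the stem cell and Wnt list (1 of 17), which encodes a partner of beta-catenin, had 10 summits with a median of 54.1 and a highest of 208. Enteroendocrine (0 of 15) and tuft cell lists (0 of 13) had none.

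The injury and inflammation lists also had 1 gene each. Anxa2 of the injury and fetal-like list (1 of 19), which encodes a membrane-binding protein of repair, had a region with few weak summits. Its 10 folds in order along chromosome 9 were 109, 154, 35.1, 73.8, 83.0, 34.2, 151, 215, 11.8 and 16.8. Bcl3 of the inflammation list (1 of 22), an NF-kB cofactor gene, had 10 summits and a strongest fold of 156. The YAP and TEAD target list had 0 of 15.

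None of 78 marker genes of other cell types that scraped mucosa can hold (T and B lymphocytes, myeloid cells, fibroblasts, endothelium, smooth muscle, enteric neurons and glia) was overlapped, which allows a share of up to 4.69% by the Wilson interval. A region of any size overlapped 47 of the 78 (60.3%), and over all protein-coding genes 71.4%. On that measure the lists of epithelial cells varied, with 24 of 24 for epithelial identity genes, 8 of 15 for enteroendocrine and 8 of 13 for tuft cell genes.

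The strongest single summit in these regions was at Lgals3, which encodes galectin-3, a lectin of the colonic epithelium. Its region on chromosome 14, from 47369657 to 47376667, had 11 summits, with folds in order of 58.2, 15.9, 24.1, 469, 381, 7.22, 146, 73.6, 29.8, 4.09 and 4.33. The 469 came from 1948 fragments (1862 to 2036) and the neighbour of 381 stood 271 bp away, so a pair of adjacent summits made up most of the height. Next after Lgals3 and Plec was a region 8830 bp from Acsl3, a fatty acid activating enzyme gene, on chromosome 1 from 78643719 to 78648995. It had a single summit of 361 (1501 fragments) among 9 of 3.13 to 86.4, a ratio of the strongest to the median of 33.4, the highest of the 278. A region of 14 summits 14810 bp from Cxcl17, a mucosal chemokine gene, followed at 324 and then Gsn at 313. After these came Arhgef10 (267), Map3k21 (265), Ralgds (261) and 2200002D01Rik with Yif1b (250.6).

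**Figure D4:**
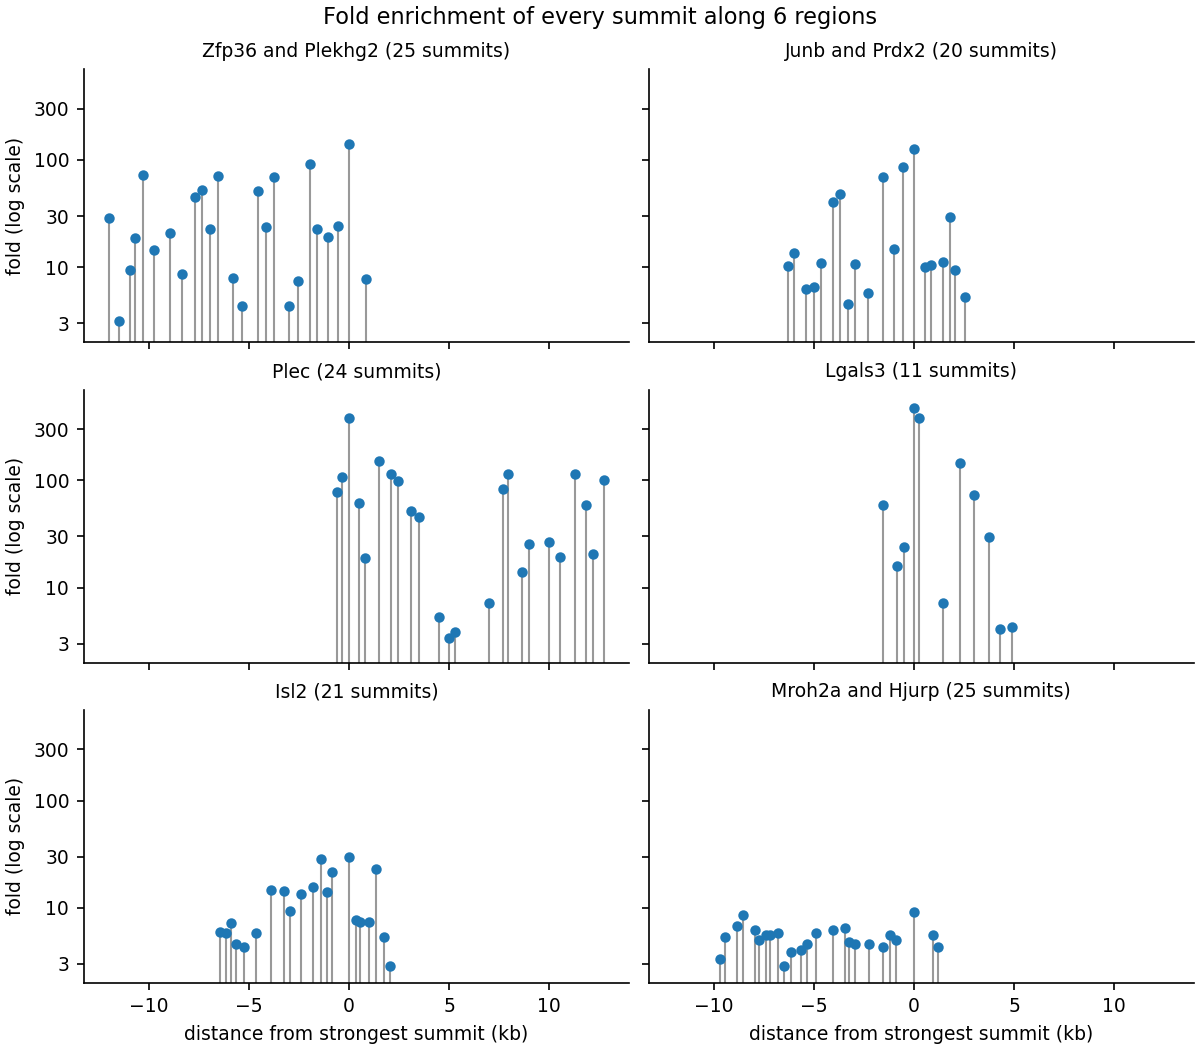
Fold enrichment of every summit (vertical axis, log scale) by distance in kb from the strongest summit (horizontal axis) for 6 regions. Zfp36, Junb, Plec and Lgals3 hold summits of 50 and above as well as summits below 10, while all 25 summits at Mroh2a and Hjurp lie between 2.89 and 9.14.

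The region with the most summits lay partly over a noncoding RNA gene. It held 37 summits in 17879 bp on chromosome 19, from 5832921 to 5850799. Its first 27 summits lay in Neat1, the gene of the scaffold RNA of nuclear paraspeckles, which spans 5824708 to 5845480. The other 10 lay outside it, beyond the boundary at 5845480. The nearest protein-coding gene was Frmd8 at 175 bp. Its folds had a median of 8.90, and summits of 125 and 111 stood at -1148 and -749 bp from the strongest, 249.9. The strongest had 1038 fragments (976 to 1103). These 3, at 5845721, 5846120 and 5846869, stood outside Neat1 but close to its boundary at 5845480. Inside Neat1 the highest summits were 44.0, 40.7 and 32.5, side by side.

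The second most, 33 summits in 16168 bp, lay inside Sfi1, a centrosome protein gene, on chromosome 11 from 3184009 to 3200176. Its weakest summit had a fold of 6.01, the median was 12.3 and the strongest 66.6. Whether reads were placed uniquely there was not tested. The widest regions beyond those with the most summits were at Tmem171 (11004 bp, 17 summits, strongest fold 118), Gse1 (10835 bp, 15 summits, 99.8) and Mef2d, a MADS box factor gene (10552 bp, 19 summits, 178). At Cant1, a nucleotidase gene, 24 summits in 12560 bp included 3 of 173, 151 and 141. A region of 22 summits with a strongest fold of 74.3 lay 8562 bp from Cbx8, a Polycomb subunit gene.

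A group of regions had many summits of uniformly low fold. Those at Mroh2a and Hjurp on chromosome 1 had 17, 11 and 25 summits with strongest folds of 6.73, 9.14 and 9.14, the last with 37 fragments (26.1 to 51.0). The third of these was 11201 bp wide, and its strongest summit stood 1.73 times above its median. A further region in Hjurp beside them, with 11 summits, reached 70.7. A region near Ccny on chromosome 18, with 10 summits, reached 7.70. Only 4 of the 278 had a strongest fold below 10, while 117 had one of 100 or more (42.1%) and 21 of 200 or more.

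Regulators of embryonic patterning were common among the weaker regions. This group was put together after the values were seen, from 39 families of homeodomain and other developmental factors, and therefore carries no test. The regions overlapped 13 of its 183 genes (7.10%, 4.20 to 11.8) against 1.21% of all genes. The strongest fold ran from 14.4 at Zic2 to 66.1 at Ebf2, so each of the 13 was below the median of all 278 regions, 83.2. When the regions were ranked by strongest fold, 11 of the 13 fell among the 70 weakest (6.73 to 48.6) and the other 2, Hoxb9 and Ebf2, among the next 69.

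Isl2, a LIM homeodomain factor gene of motor neurons, had 21 summits in 8724 bp on chromosome 9, from 55538533 to 55547256. Its folds ran from 2.89 through 7.70 to 29.6 (122 fragments, 101 to 146). Gata2, a factor gene of blood progenitors, had 19 summits and a strongest fold of 22.1 (91 fragments, 73.3 to 112). Hoxa13 and Hoxd9, which pattern the posterior body, lay whole in their regions, with 18.8 and 20.2.

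**Figure D5:**
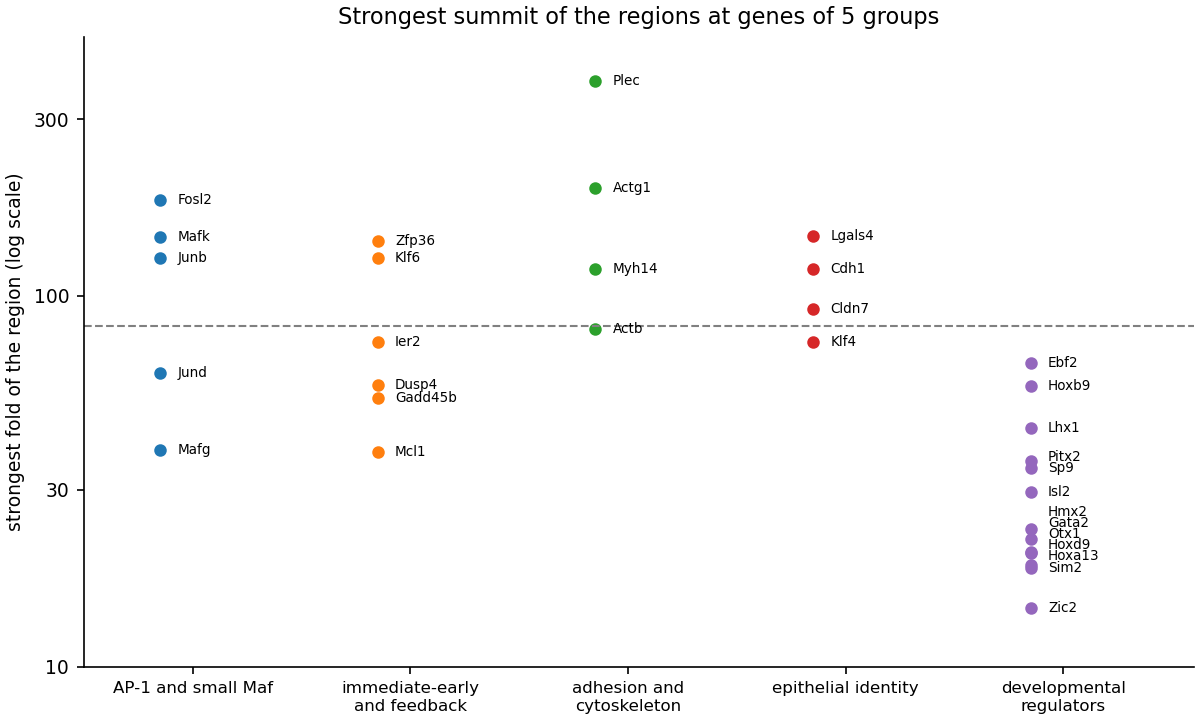
Strongest fold of the region (vertical axis, log scale) for each overlapped gene in 4 gene lists and the group of developmental regulators, 1 point a gene, with labels moved apart where they would touch. The dashed line is the median of all 278 regions, 83.2, and all 13 developmental regulators lie below it.

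The narrowest regions were packed tightly. Ang and Rnase4, ribonuclease genes that share promoters, had 10 summits in 3669 bp with a strongest fold of 26.7, and Lsr with Fam187b had 10 in 3732 bp with 66.4. A region inside Mroh2a had 11 in 3574 bp, or 3.08 per kb, the highest density among the 278, whose median was 1.96 per kb. On chromosome X only 1 of 1633 regions had 10 or more summits (0.0612%, 0.0108 to 0.346), against 277 of 106773 on the autosomes (0.259%, 0.231 to 0.292). It lay inside Bcor, a corepressor gene, with 10 summits and a strongest fold of 43.8. Shares on single autosomes ran from 0.0610% on chromosome 13, with 3 regions, to 0.417% on chromosome 7, with 29.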

How the data were processed

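Per the submitters' processing notes, the tools were Bowtie2 and MACS2 and the genome was mm10, with no version or command named. The deposited file held 1 row per summit, with a score (10 times the −log10 q-value, cut to an integer), the authors' fold enrichment (a linear ratio), their −log10 q-value, and the summit's offset. The pooling and the depth of each library are not given in the sources used here.

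All folds were whole multiples of 0.2405 within 0.05 steps, and the pileup in fragments was read as fold over step minus 1. That step corresponds to the same background, 3.157 fragments, at every summit, so the folds carry no adjustment for local background. Exact Poisson (95%) and Wilson (95%) intervals cover counting error only. Gene positions and promoter windows were RefSeq, GRCm38.p6, 1-based, covering 21631 protein-coding genes on chromosomes 1 to 19 and X, and 332 of 333 list genes matched. The promoter table had no window on chromosome 18. Regions were picked for naming by fixed ranks: the 10 with most summits, widest and strongest, the 3 weakest and narrowest, those on chromosome X, whole genes inside (10), and up to 4 genes per list. Jund, Klf6, Gadd45b, the developmental group, the miRNAs and the printed promoters were chosen after their values were seen. The regions and lists were chosen with earlier results of these data known. Pileup recovery, the grouping of rows into regions and the motif search were tested on simulated data. Alternatives changed the summit minimum, the q limit, joining, overlap and motif letters. Python 3.11.15, pandas 2.3.3 and SciPy 1.17.1 were used.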

Additional observations from a re-analysis of the deposited data

How the results depend on the processing

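No paired analysis was possible because the 1 deposited list has no value per library, and for the same reason no replicate could be left out. Of 48 alternatives over 7 results, 27 stayed within the interval of the value given or within 1.5 times a count. With a minimum of 8 summits there were 728 regions with a median width of 4679.5 bp and a median strongest fold of 75.5, touching 653 genes and 7 of the epithelial identity genes. With a minimum of 15 there were 38 regions, 8943 bp wide with a fold of 112, a boundary in 65.8%, and 41 genes, 0 of them epithelial identity genes. With only summits of −log10 q of at least 10 there were 114 regions, 6875.5 bp, a fold of 115, 107 genes and 2 identity genes. Joining regions within 500 bp gave 627 regions of 6601 bp, 592 genes and 10 identity genes. Fewer or more summits are counted in these 4 settings by construction. Boundaries of all gene kinds fell in 67.6%. The motif share stayed within 5.22 and 8.37% in all 8 alternatives. Leaving out the regions at Sfi1, Mroh2a and Hjurp, an alternative chosen after seeing the data, left 273 regions and changed no result beyond those limits. Depth per library, and with it the precision of weak summits, is unknown.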

Other observations

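Some regions with 10 or more summits had another such region close by: 70 of 278 (25.2%, 20.4 to 30.6) lay within 100 kb of another. The same share was not computed for other regions. Neighbours count each other, so the interval, which treats regions as independent, is only a rough guide. Lmna, which encodes lamins A and C of the nuclear envelope, held 3 such regions on chromosome 3. They had 10, 10 and 15 summits and strongest folds of 188, 152 and 176. On chromosome 6, at 114125, 128558 and 163404 bp from Klf14, the nearest protein-coding gene, there were 3 with 17, 13 and 10 summits and strongest folds of 95.01, 124 and 51.2, of which those with 13 and 10 overlapped the noncoding RNA gene Lncpint. The 2 regions at Map3k21, a mixed-lineage kinase gene, were 258 bp apart, with 10 and 14 summits. Around the 278 regions, a median of 36 other summits lay within 50 kb (interquartile range 25.3 to 50), against 17 (8 to 29) around all regions. The median was 32 (22 to 44) around the 874 regions with fewer summits that were at least as wide as the narrowest of the 278. Those were not matched for width, with a median of 4069 bp against 5917 bp.

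Among other kinds of gene, 8 of 408 tRNA genes (1.96%), 11 of 1228 miRNA genes (0.896%) and 81 of 12697 lncRNA genes (0.638%) were overlapped, and 0 of 1340 snoRNA genes. The median CpG content of promoter windows was somewhat lower in the stronger groups of regions. The ratio of observed to expected CpG had medians of 0.702, 0.713, 0.663 and 0.623 in 4 groups of 69 or 70 regions. The groups run from the lowest to the highest strongest fold. On another measure, the highest ratio among the windows of a region, Spearman's rho with the strongest fold was -0.051 over the 150 regions with a window. That value is across regions that share libraries and differ in width and base composition. TGANTCA occurred in 7 of 48 windows of the strongest group (14.6%), and in 4 of 61, 2 of 57 and 4 of 64 of the others. Over all windows the share was 7.85%. In the strongest group the windows of F11r and Gm26641 hold the same motif site, counted once for each. Their region had the lowest strongest fold of that group, 142. The 4 groups were chosen after the values were seen and carry no test.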
